A study of Rattus norvegicus and Mus musculus with 12 samples.

Results

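The hypoxia-inducible factor (HIF) genes and their targets were examined in RNA-seq libraries of articular chondrocytes from rats and mice. The 10 genes were Hif1a, Epas1, Egln1, Egln3, Vegfa, Adm, Car9, Car12, Bnip3 and Ndrg1. They were chosen by gene symbol from the 19687 genes of the rat table and the 28603 genes of the mouse table, and all 10 were found in both tables and passed the filter on low counts in both species. The group was named with earlier results of the same comparisons known, so the values of its members are given as a description, without P values. The chondrocytes were at passage 1 and came from newborn SD rats (Sprague–Dawley) and newborn mice. The RC and MC groups were the rat and mouse control groups. The RM and MM groups, the model groups, were exposed to IL-1β, a cytokine of joint inflammation, at 20 ng/ml for 24 h in culture. Each group had 3 libraries. The strain given with the mouse libraries changes from label to label, from C57BL/6 up to C57BL/9, whereas the study's methods name C57BL/6 throughout. The model is a culture exposed to 1 cytokine and holds no joint tissue.

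HIF is a transcription factor made of an oxygen-regulated α subunit, encoded by Hif1a (HIF-1α) or Epas1 (HIF-2α), and a stable β subunit encoded by Arnt. In the presence of oxygen, the prolyl hydroxylases encoded by the Egln genes mark the α subunit, and the von Hippel-Lindau protein (Vhl) directs the marked protein to degradation. When the α subunit persists, HIF binds short DNA motifs and raises the transcription of genes for glucose uptake, glycolysis, vessel growth, pH control and mitophagy, with Egln3 and Egln1 among these targets. Cartilage has no blood vessels, and chondrocytes live at low oxygen and use HIF-1α to survive and to make matrix. Protein, hydroxylation and oxygen were not measured in these libraries, which report RNA only.

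In rat, 7 of the 10 genes were higher in RM than in RC libraries, with fitted changes from 1.40-fold (Hif1a) to 22.5-fold (Egln3), and Car9, Car12 and Ndrg1 did not pass the test. In mouse, all 10 were higher in MM than in MC libraries, from 2.19-fold (Hif1a) to 88.9-fold (Egln3). The fitted change was larger in mouse than in rat for each of the 10 genes, a direction that was turned for Epas1 by scaling with library size alone. The difference passed the test for 63.7% of the genes shared by both species. A gene was called here when edgeR's quasi-likelihood test gave a Benjamini-Hochberg adjusted P under 0.05 over all genes tested, and 18.3% of the 13303 rat genes and 37.4% of the 14774 mouse genes were called as higher (35.1% and 75% in either direction). Differentially expressed genes (DEGs) had to reach an absolute log2 fold change of 0.85, an unadjusted P under 0.05 and, in 1 library or more, an FPKM of 1. Of the members, 6 were DEGs with higher expression in rat and 10 in mouse. Among all genes, 4.64% were DEGs with higher and 3.9% with lower expression in rat (8.54% in all), and 12.6% and 13% in mouse (25.6% in all). The model libraries did not overlap with the control libraries for 7 members in rat and 10 in mouse, where 47.8% and 80.3% of all genes did not overlap. Nothing is read from these counts, because the genes were named with the contrasts known. The smallest P that an exact permutation test can reach with groups of 3 libraries is 0.1, and edgeR's test instead borrows the spread from all genes.

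**Figure D1:**
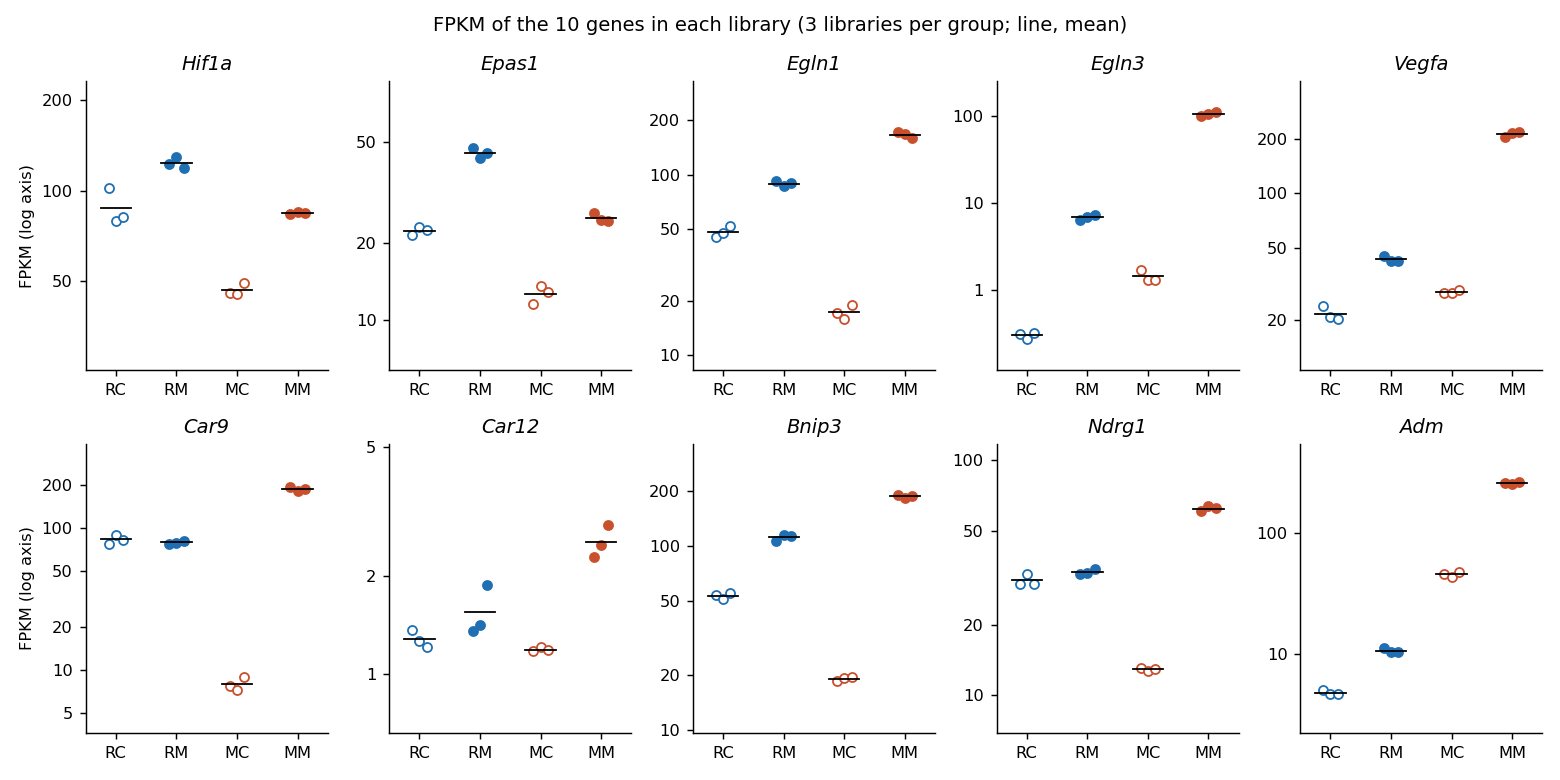
FPKM (log axis, a separate range for each gene) of the 10 genes in the RC, RM, MC and MM groups, with 1 point per library and a line at the mean of the 3 libraries. The MM libraries lie above the MC libraries in all 10 panels, and the RM and RC libraries overlap for Car9, Car12 and Ndrg1.

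Levels are given as FPKM, the deposited read count of a gene scaled to the length of the gene and to the counted reads of the library, and changes as log2 fold changes of the model over the control group fitted to the counts. The fitted changes are scaled by edgeR's TMM factors and the FPKM values are not, so the ratio of mouse FPKM means is smaller than the fitted fold. With library size alone, the median change over all mouse genes moved on the log2 scale from -0.02 to -0.29. Gene lengths come from a different annotation in each species, so levels are compared within a species. In bulk RNA, fewer cells of a type and less RNA per cell cannot be told apart.

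Among the HIF subunits, Hif1a (ENSRNOG00000008292 in rat) had an FPKM of 102, 79.4 and 81.6 in the RC libraries and of 123, 129 and 119 in the RM libraries. RC replicate 1 was the highest control library and still lay below the lowest RM library. The mean rose from 87.6 ± 12.3 (SD, n = 3) to 124 ± 5.41, a fitted log2 change of 0.48 (standard error 0.0945, 95% interval 0.274 to 0.693), below the DEG threshold. In mouse (ENSMUSG00000021109, chromosome 12, 73901375 to 73947530, GRCm38), Hif1a was at 45.5, 45.1 and 49.1 in the MC libraries and at 83.4, 84.8 and 84.5 in the MM libraries. The mouse groups were far apart relative to their spread, with a fitted log2 change of 1.13 (standard error 0.0308), 0.65 above that in rat (standard error of the difference 0.106). Of all members, Hif1a had the smallest rise in mouse, and it was the highest of the 10 genes in both the RC and the RM group.

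Epas1, the gene of HIF-2α, rose by a similar factor in both species. In rat (ENSRNOG00000021318) its FPKM was 21.6, 23.2 and 22.5 in RC libraries and 47.5, 43.3 and 45.3 in RM libraries, with a fitted log2 change of 1.00 (standard error 0.0685). In mouse (ENSMUSG00000024140, chromosome 17, 86753700 to 86833410) it was 11.6, 13.6 and 12.8 in MC and 26.4, 24.7 and 24.4 in MM libraries, a fitted log2 change of 1.27 (standard error 0.0443). The groups did not overlap in either species. The difference between the species, 0.27 (standard error 0.0881), was the smallest among the 10 genes and changed sign, to -0.03, when mouse and rat libraries were scaled by library size alone. Within a library, the ratio of Hif1a to Epas1 FPKM does not depend on the scaling. It fell in rat from 4.71, 3.43 and 3.63 to 2.59, 2.99 and 2.62, with no overlap between the groups. In mouse it was 3.69 ± 0.328 (SD, n = 3) in MC and 3.35 ± 0.168 in MM libraries, and the groups overlapped.

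The Egln genes encode prolyl hydroxylases, the oxygen sensors of the pathway, and Egln3 had the largest fitted rise of the 10 genes in each species. It was close to absent in the control groups, with 22, 18 and 19 counts in the RC libraries and 77, 58 and 63 in the MC libraries. It had 364, 508 and 497 counts in the RM libraries and 5299, 5513 and 5140 in the MM libraries. Every model library therefore held many times the reads of every control library of its species. In rat (ENSRNOG00000005053) the FPKM rose from 0.303 ± 0.0241 (SD, n = 3) to 6.91 ± 0.481, a fitted log2 change of 4.49 (standard error 0.15). In mouse (ENSMUSG00000035105, chromosome 12, 54178981 to 54203860) it rose from 1.43 ± 0.222 to 105 ± 5.61, a fitted log2 change of 6.47 (standard error 0.0645). Ranked by log2 fold change among all genes tested, Egln3 stood at place 34 in rat and 87 in mouse, the highest of the 10 genes in each species.

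Egln1 was expressed at a much higher level than Egln3 before stimulation. In rat (ENSRNOG00000019773) it was at 45.2, 47.9 and 52.1 FPKM in the RC libraries and at 92.2, 86.6 and 89.8 in the RM libraries. The groups were well separated, but the log2 fold change of 0.87 (standard error 0.0795) lay close to the DEG threshold of 0.85 and was 0.81 without RC replicate 1. In mouse (ENSMUSG00000031987, chromosome 8, 124908587 to 124949324) Egln1 was at 17.3, 15.9 and 19.1 FPKM in the MC libraries and at 173, 168 and 161 in the MM libraries, a fitted log2 change of 3.54 (standard error 0.0398). The mouse rise was larger by 2.67 on the log2 scale (standard error 0.0974). The balance between both sensors shifted in each species. The ratio of Egln1 to Egln3 FPKM was 144, 174 and 163 in the RC libraries and 14.4, 12.4 and 12.2 in the RM libraries. In mouse it was 10.2, 12.3 and 14.5 in the MC libraries and 1.74, 1.59 and 1.45 in the MM libraries, so the FPKM of Egln3 came near that of Egln1.

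**Figure D2:**
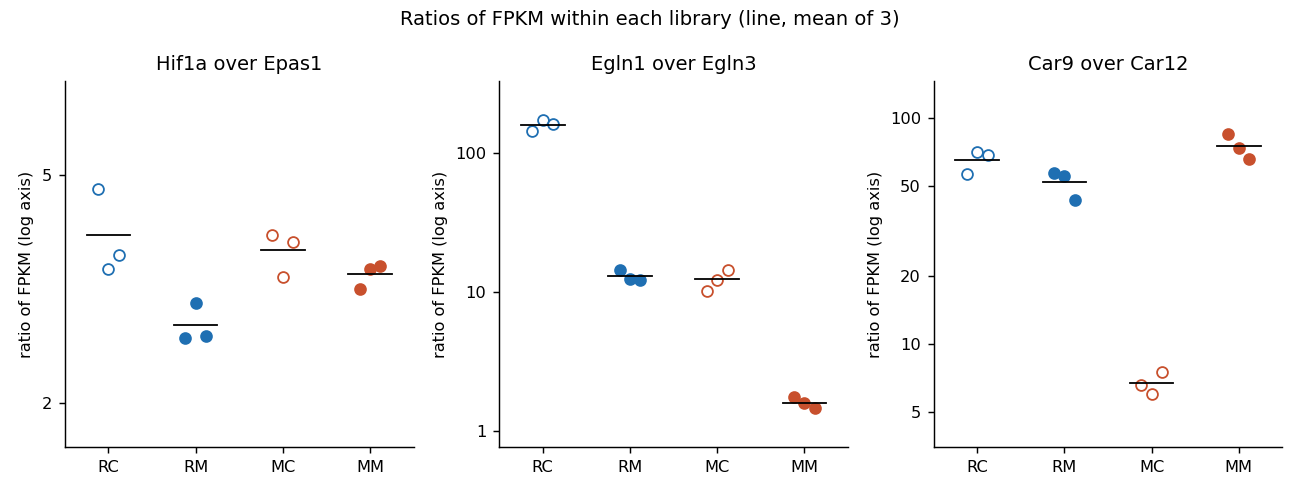
Ratios of FPKM within each library (log axis) for Hif1a over Epas1, Egln1 over Egln3 and Car9 over Car12, with 1 point per library and a line at the group mean. Egln1 over Egln3 was lower in every model library than in every control library of its species, and Car9 over Car12 separated the mouse groups but not the rat groups.

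Of the secreted targets, Vegfa encodes the main growth factor of blood vessels. In rat (ENSRNOG00000019598) its FPKM was 23.9, 20.7 and 20.3 in the RC libraries and 45.4, 42.3 and 42.4 in the RM libraries, a fitted log2 change of 0.98 (standard error 0.0819). In mouse (ENSMUSG00000023951, chromosome 17, 46016993 to 46032369) it was 28.4, 28.2 and 29.4 in the MC libraries and 205, 216 and 217 in the MM libraries, a fitted log2 change of 3.17 (standard error 0.032). The rise was 1.98-fold in rat and 9.00-fold in mouse, and no model library overlapped with a control library.

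Adm encodes adrenomedullin, a peptide that widens vessels and acts on their lining. Its FPKM was 5.07, 4.69 and 4.68 in the RC libraries and 11.2, 10.3 and 10.4 in the RM libraries (ENSRNOG00000027030), a fitted log2 change of 1.13 (standard error 0.111). In mouse (ENSMUSG00000030790, chromosome 7, 110627661 to 110629820) it was 45.8, 42.9 and 47.0 in the MC libraries and 255, 252 and 259 in the MM libraries, a fitted log2 change of 2.77 (standard error 0.0361). Adm had the highest FPKM of the 10 genes in the MM group, and the third lowest in the RM group, below Ndrg1 and above Egln3.

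Car9 and Car12 encode membrane carbonic anhydrases, enzymes that turn carbon dioxide and water into bicarbonate and acid at the cell surface. Car9 in rat (ENSRNOG00000017073) had an FPKM of 77.7, 89.7 and 83.1 in the RC libraries and of 77.8, 78.8 and 81.6 in the RM libraries. It was thus already high in the control chondrocytes, not separable from Hif1a at the top of the RC order, and the groups overlapped. The log2 fold change was -0.09 with a 95% interval of -0.25 to 0.072, an interval that lies below the DEG threshold. In mouse (ENSMUSG00000028463, chromosome 4, 43506966 to 43513729) Car9 was at 7.76, 7.27 and 8.92 in the MC libraries and at 196, 184 and 189 in the MM libraries, a fitted log2 change of 4.85 (standard error 0.0466) or 28.8-fold. The difference between the species, 4.94 (standard error 0.0993), was the largest among the 10 genes.

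Car12 was expressed at a low level in all groups. In rat (ENSRNOG00000017766) its FPKM was 1.37, 1.27 and 1.21 in the RC libraries and 1.36, 1.42 and 1.88 in the RM libraries, with 66 to 116 counts per library. The groups overlapped through RC replicate 1 and RM replicate 1, and the log2 fold change was 0.26 with a 95% interval of -0.157 to 0.677. In mouse (ENSMUSG00000032373, chromosome 9, 66713686 to 66766845) it rose from 1.18, 1.21 and 1.19 to 2.29, 2.50 and 2.87, a fitted log2 change of 1.37 (standard error 0.0995). The ratio of Car9 to Car12 FPKM was 6.70 ± 0.761 (SD, n = 3) in MC and 75.0 ± 9.76 in MM libraries. In rat it was 65.4 ± 7.55 and 52.0 ± 7.43, with overlap.

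Bnip3 encodes a mitochondrial outer membrane protein that marks mitochondria for mitophagy. In rat (ENSRNOG00000017243) its FPKM was 54.0, 51.7 and 55.5 in the RC libraries and 107, 115 and 114 in the RM libraries, a fitted log2 change of 1.04 (standard error 0.0689). In mouse (ENSMUSG00000078566, chromosome 7, 138890836 to 138909519) it was 18.4, 19.2 and 19.3 in the MC libraries and 188, 183 and 187 in the MM libraries, a fitted log2 change of 3.57 (standard error 0.0382). Bnip3 rose by 2.06-fold in rat and 11.9-fold in mouse, and in mouse it rose by nearly the same factor as Egln1.

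Ndrg1, a stress-responsive gene induced by low oxygen in many cell types, changed clearly in mouse. In rat (ENSRNOG00000007393) its FPKM was 29.8, 33.0 and 29.7 in the RC libraries and 33.0, 33.3 and 34.4 in the RM libraries. RC replicate 2 reached the level of the lowest RM library, and the log2 fold change was 0.10 with a 95% interval of -0.055 to 0.265. In mouse (ENSMUSG00000005125, chromosome 15, 66929318 to 66969640) it was 13.1, 12.8 and 12.9 in the MC libraries and 60.6, 63.9 and 62.6 in the MM libraries, a fitted log2 change of 2.55 (standard error 0.0348) or 5.86-fold. The differences between the species were 2.19 for Vegfa, 1.65 for Adm, 2.53 for Bnip3, 2.45 for Ndrg1, 1.98 for Egln3 and 1.11 for Car12 on the log2 scale.

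**Figure D3:**
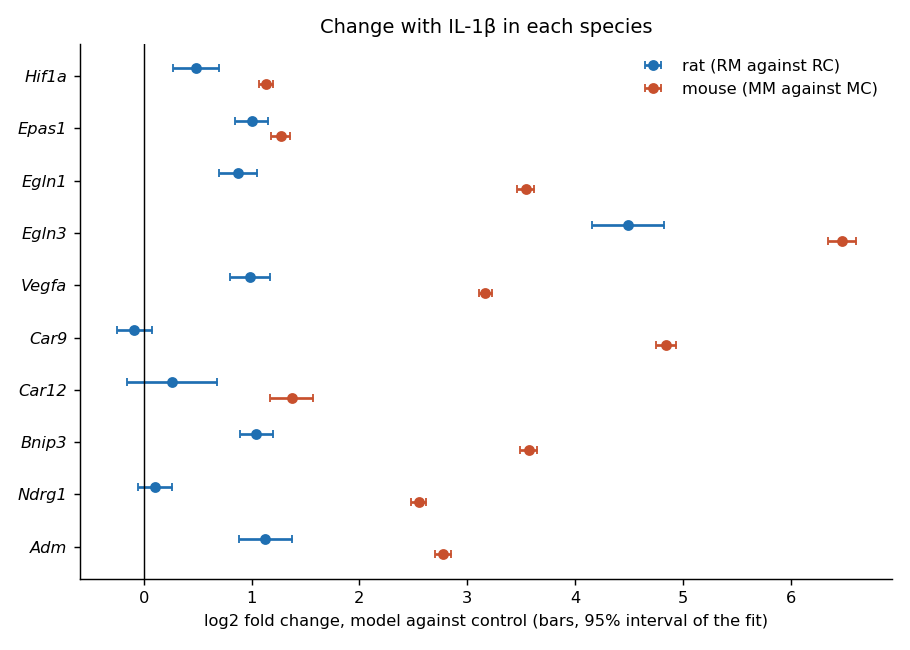
Log2 fold change of the model over the control group for the 10 genes in rat and mouse (points) with 95% intervals (bars) from edgeR's quasi-likelihood fit. All 10 mouse values exceed the rat values with TMM scaling (Epas1 does not with library size alone), and the rat intervals of Car9, Car12 and Ndrg1 include 0.

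The FPKM of the 10 genes added up to 351 to 361 in the RC libraries and 545 to 547 in the RM libraries. The sum was 187 to 201 in the MC libraries and 1284 to 1298 in the MM libraries. The order of levels changed with it. In the RC group Hif1a and Car9 led and did not differ beyond their spread, followed by Bnip3 and Egln1, which overlapped, and then by Ndrg1, Epas1, Vegfa, Adm, Car12 and Egln3, of which Epas1 and Vegfa overlapped. In the RM group Hif1a, Bnip3, Egln1 and Car9 led in this order without overlap. In the MC group Hif1a and Adm overlapped at the top, followed by Vegfa, Bnip3 and Egln1, with overlap between the latter pair. In the MM group the order was Adm, Vegfa, Car9, Bnip3, Egln1, Egln3, Hif1a, Ndrg1, Epas1 and Car12, where only the neighbours Car9 and Bnip3 overlapped.

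**Figure D4:**
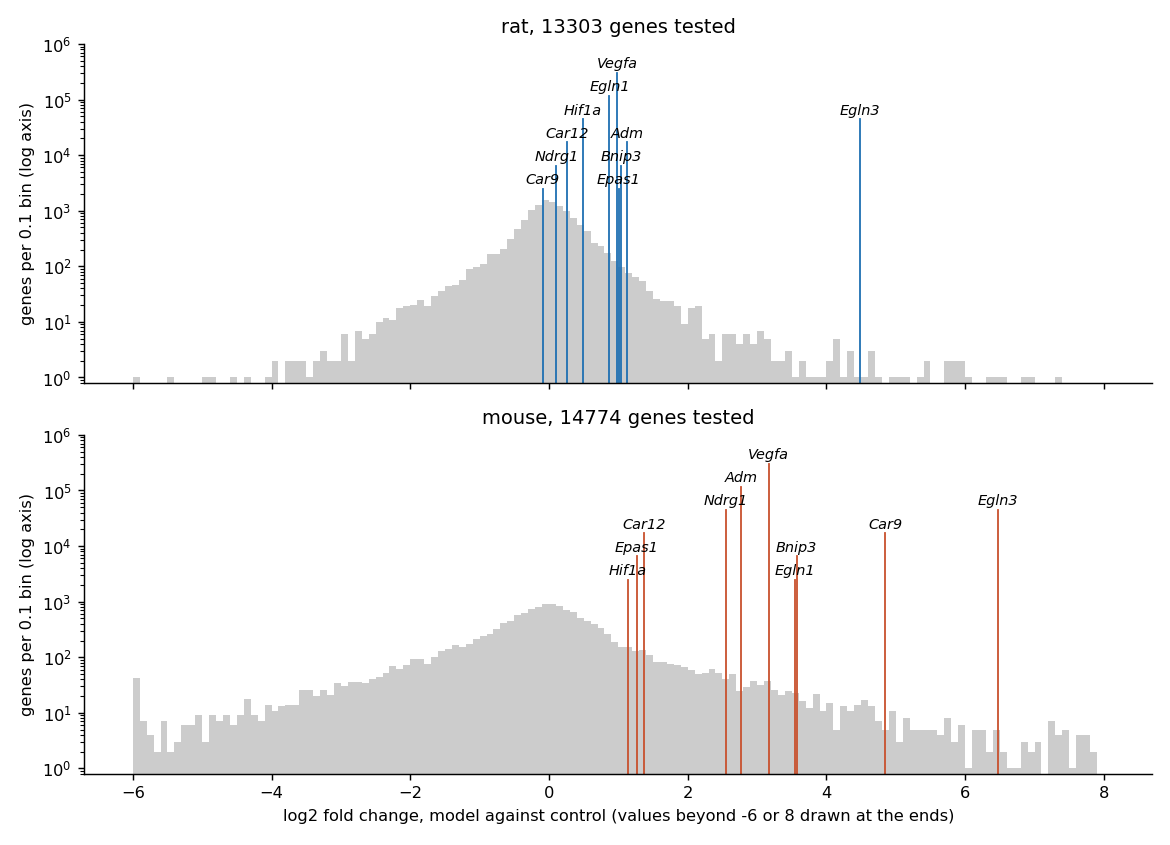
Distribution of log2 fold changes over the 13303 rat and 14774 mouse genes tested (grey, genes per bin of 0.1, log axis), with lines at the 10 genes. In rat, 9 of the 10 lie between -0.09 and 1.13 and Egln3 lies at 4.49, and in mouse all 10 lie between 1.13 and 6.47.

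Rat promoter sequences were searched for the letters that HIF can bind around the transcript start of these genes. HIF sites share the core ACGTG or, less often, GCGTG, and both were searched on both strands from 250 bases before to 50 bases after the start of the transcript. RefSeq promoters of the rat assembly GRCr8, which is not the build of the counts, were matched by symbol for 9 of the 10 genes, without Ndrg1. Hif1a, Egln1, Car9, Car12 and Bnip3 held ACGTG, and Egln1, Car12 and Bnip3 also held GCGTG, so 5 of 9 genes held either core and 4 (Epas1, Egln3, Vegfa and Adm) held neither. Of 33469 rat promoters of this length, 19.3% held ACGTG, 29.7% GCGTG and 41.6% either. Among 10694 promoters of genes tested in rat, the shares were 24.5%, 49.1% and 60.5%. For ACGTG the 5 of 9 genes lie above these shares and for either core near that of the tested genes, without a test, and a match is a description of letters only. Bnip3 and Egln1, which rose in both species, are shown with Car9, which rose in mouse alone by the calls, and with the first of 2 Vegfa promoters, which holds no match. Sequences run 5′ to 3′ on the strand of the gene, and capitals mark either core on either strand, where a palindrome (CACGTG) counts on both strands.
Bnip3, chr1:203154913-203155212, minus strand: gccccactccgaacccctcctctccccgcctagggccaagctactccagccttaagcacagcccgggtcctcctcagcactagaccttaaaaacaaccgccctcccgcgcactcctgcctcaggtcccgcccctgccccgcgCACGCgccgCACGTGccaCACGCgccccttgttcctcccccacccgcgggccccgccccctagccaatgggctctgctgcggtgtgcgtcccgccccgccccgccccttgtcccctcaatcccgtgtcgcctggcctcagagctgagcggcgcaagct
Egln1, chr19:69804632-69804931, minus strand: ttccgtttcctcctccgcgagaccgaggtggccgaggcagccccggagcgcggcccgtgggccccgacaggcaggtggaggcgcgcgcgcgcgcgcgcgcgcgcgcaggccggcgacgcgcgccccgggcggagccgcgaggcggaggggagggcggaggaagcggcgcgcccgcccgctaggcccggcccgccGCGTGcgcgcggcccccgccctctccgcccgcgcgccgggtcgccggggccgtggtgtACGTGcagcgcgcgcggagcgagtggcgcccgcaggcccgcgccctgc
Car9, chr5:62558774-62559073, plus strand: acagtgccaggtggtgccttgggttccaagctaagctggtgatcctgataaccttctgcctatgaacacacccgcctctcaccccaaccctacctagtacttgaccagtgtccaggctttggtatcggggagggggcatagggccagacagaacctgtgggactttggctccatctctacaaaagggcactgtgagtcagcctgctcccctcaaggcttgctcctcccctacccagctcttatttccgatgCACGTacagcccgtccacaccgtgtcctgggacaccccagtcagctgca
Vegfa, chr9:22452604-22452903, plus strand: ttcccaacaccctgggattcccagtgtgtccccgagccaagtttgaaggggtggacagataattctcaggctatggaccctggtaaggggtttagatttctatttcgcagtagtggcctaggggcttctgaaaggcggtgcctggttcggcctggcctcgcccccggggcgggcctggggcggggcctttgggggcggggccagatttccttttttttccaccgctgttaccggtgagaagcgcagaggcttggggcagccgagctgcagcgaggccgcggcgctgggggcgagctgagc
In Car9 the core begins at base 2 after the start, and in Egln1 an ACGTG begins at base 3. The 4 genes without a core in this window, Epas1, Egln3, Vegfa and Adm, are among the 7 that were called in rat. So are Hif1a, Egln1 and Bnip3, which hold a core, whereas Car9 and Car12 hold a core and were not called. Sites outside the window were not searched.

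Beyond the 10 genes, 112 further genes of the pathway were listed by role. Of these, 96 were tested in rat, of which 41 (42.7%) were called higher, 15 (15.6%) lower and 40 were not called, beside 18.3% and 16.8% of all rat genes. In mouse 101 were tested, of which 77 (76.2%) were called higher, 12 (11.9%) lower and 12 were not called, beside 37.4% and 37.7% of all mouse genes. The median log2 fold change of the list was 0.24 in rat and 1.79 in mouse, beside 0.005 and -0.02 for all genes tested. Of 92 genes with a fitted difference, 70 had a higher log2 fold change in mouse and 10 in rat at an adjusted P under 0.05. At this threshold 31.4% and 32.3% of all 10951 shared genes did so (3436 and 3539 genes with TMM, 2196 and 5415 with library size alone). The difference is signed, so a gene that fell more in mouse counts as higher in rat. These lists were also chosen with earlier results known.

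Of 14 partners and regulators tested in rat, 1 was called higher and 1 lower, and of 15 in mouse, 9 were called higher and 1 lower. Over all genes, 18.3% were called higher and 16.8% lower in rat, and 37.4% and 37.7% in mouse. Arnt, the β subunit, was at 22.5 ± 1.22 FPKM (SD, n = 3) without and at 22.4 ± 0.333 with IL-1β in rat (adjusted P = 0.814). In mouse its FPKM was 12.6 ± 0.388 and 10.2 ± 0.345, and its log2 fold change was -0.02 (adjusted P = 0.742) with TMM and -0.29 with library size alone, so its call depends on the scaling. Vhl, which directs the α subunits to degradation, was at 17.7 ± 1.03 and 17.2 ± 0.966 in rat (adjusted P = 0.583). In mouse it rose from 12.01 ± 0.276 to 36.0 ± 0.413, by 1.86 on the log2 scale (standard error 0.0469, adjusted P = 2.8e-43), and the difference between the species was 1.93 (adjusted P = 9.29e-12). Cited2, a feedback inhibitor that competes with HIF for its coactivators, rose in both species, with log2 fold changes of 0.24 (adjusted P = 0.0203) in rat and 2.00 (adjusted P = 2.57e-54) in mouse. Its rat call was lost without RC replicate 3 (0.25, adjusted P = 0.0587), RM replicate 1 (0.25, adjusted P = 0.0654) or RM replicate 3 (0.22, adjusted P = 0.0911). Egln2, the third prolyl hydroxylase, and Hif1an, which hydroxylates the α subunit at an asparagine, were not called in rat, though without RC replicate 1 both were called lower (-0.35, adjusted P = 0.0058, and -0.28, adjusted P = 0.0357). In mouse Egln2 had a log2 fold change of 0.34 (adjusted P = 4.32e-10), a call lost with library size alone, and Hif1an one of 0.06 (adjusted P = 0.278) that turned to -0.22 with library size alone. Arnt2 fell in both species, by 0.50 in rat and 1.00 in mouse on the log2 scale.

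Of the glucose uptake and glycolysis genes, 14 of 20 were called higher in rat and 20 of 22 in mouse, and 1 was called lower in each, with median log2 fold changes of 0.54 and 2.17. The DEG criteria were passed by 3 in rat and 19 in mouse, all of them higher. Of the 3 in rat, Eno2 rested on RM replicate 1, with 387 counts beside 38 and 54 in the other RM libraries. Its groups overlapped and it was not called (adjusted P = 0.0639). The shares over all genes were 18.3% and 37.4% called higher and 4.64% and 12.6% DEGs with higher expression. Slc2a1, the glucose transporter GLUT1, went up from 41.4 ± 3.51 FPKM (SD, n = 3) to 83.4 ± 4.24 in rat (log2 fold change 0.99, adjusted P = 7.82e-06) and from 32.5 ± 0.636 to 308 ± 3.88 in mouse (3.52, adjusted P = 9.58e-69). Slc16a3, the lactate exporter MCT4, rose by 1.79 in rat and 3.72 in mouse on the log2 scale (adjusted P = 1.21e-07 and 3.19e-67).

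Of 9 genes of mitochondria and mitophagy, 7 were called higher in rat and 8 in mouse, and 1 was called lower in each, beside 18.3% and 37.4% of all genes called higher and 16.8% and 37.7% called lower. Bnip3l, the nearest relative of Bnip3, had log2 fold changes of 0.48 and 2.58 and is named outside the rule for named genes, after its values were seen. Pdk1, a kinase that keeps pyruvate out of the citric acid cycle, rose by 0.92 on the log2 scale in rat (adjusted P = 8.37e-06) and 2.43 in mouse. Ndufa4l2 had 0.89 and 3.04, and Fam162a 0.86 and 3.42.

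The secreted targets beside Vegfa and Adm differed in direction. Of 8 tested in rat 4 were called higher and 2 lower, and of 9 in mouse 6 were called higher and 1 lower (over all genes 18.3% and 16.8% in rat, and 37.4% and 37.7% in mouse). Angptl4, a regulator of lipoprotein lipase, rose in rat from 0.506 ± 0.169 to 16.0 ± 0.458 FPKM (SD, n = 3; log2 fold change 4.98, adjusted P = 1.45e-08) and in mouse from 1.58 ± 0.0487 to 26.0 ± 1.34 (4.32, adjusted P = 2.11e-53). The difference in mouse minus rat was -0.66 for Angptl4 (adjusted P = 0.00671), a call lost without RC replicate 1 (-0.41, adjusted P = 0.0764). Pgf, the placental member of the VEGF family, fell in rat from 5.47 ± 0.406 to 3.01 ± 0.186 FPKM (-0.88, adjusted P = 0.000708) and rose in mouse from 0.537 ± 0.118 to 5.59 ± 0.146 (3.65, adjusted P = 1.14e-31). Igfbp3 fell by 1.17 in rat and by 0.28 in mouse.

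Among 7 genes that modify or crosslink collagen, 4 were called higher and 1 lower in rat, and 7 were called higher in mouse. Lox, the collagen crosslinking lysyl oxidase, rose by 1.47 in rat and 1.36 in mouse on the log2 scale, and the difference of -0.11 was not called (adjusted P = 0.3). It was called with library size alone (-0.40, adjusted P = 0.000658) and without RC replicate 1 (-0.17, adjusted P = 0.0286). Its relative Loxl2 moved in opposite directions, from 291 ± 17.9 to 207 ± 8.58 FPKM (SD, n = 3) in rat (-0.51, adjusted P = 0.000256) and from 18.0 ± 1.26 to 97.2 ± 1.37 in mouse (2.71, adjusted P = 4.14e-59). Ero1a, an oxidase of disulfide bonds, rose by 0.89 in rat and 3.71 in mouse. Among 18 other targets in rat 9 were called higher and 3 lower, and among 20 in mouse 19 were called higher and 1 lower. For both lists the shares over all genes are 18.3% higher and 16.8% lower in rat, and 37.4% and 37.7% in mouse. The rise of Ak4 was 1.35 and 3.39, that of Bhlhe40 1.00 and 2.53 and that of Gbe1 0.60 and 4.65. Ankrd37 was not called in rat (0.15, adjusted P = 0.628) and rose by 4.48 in mouse from 23 counts over the MC group.

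**Figure D5:**
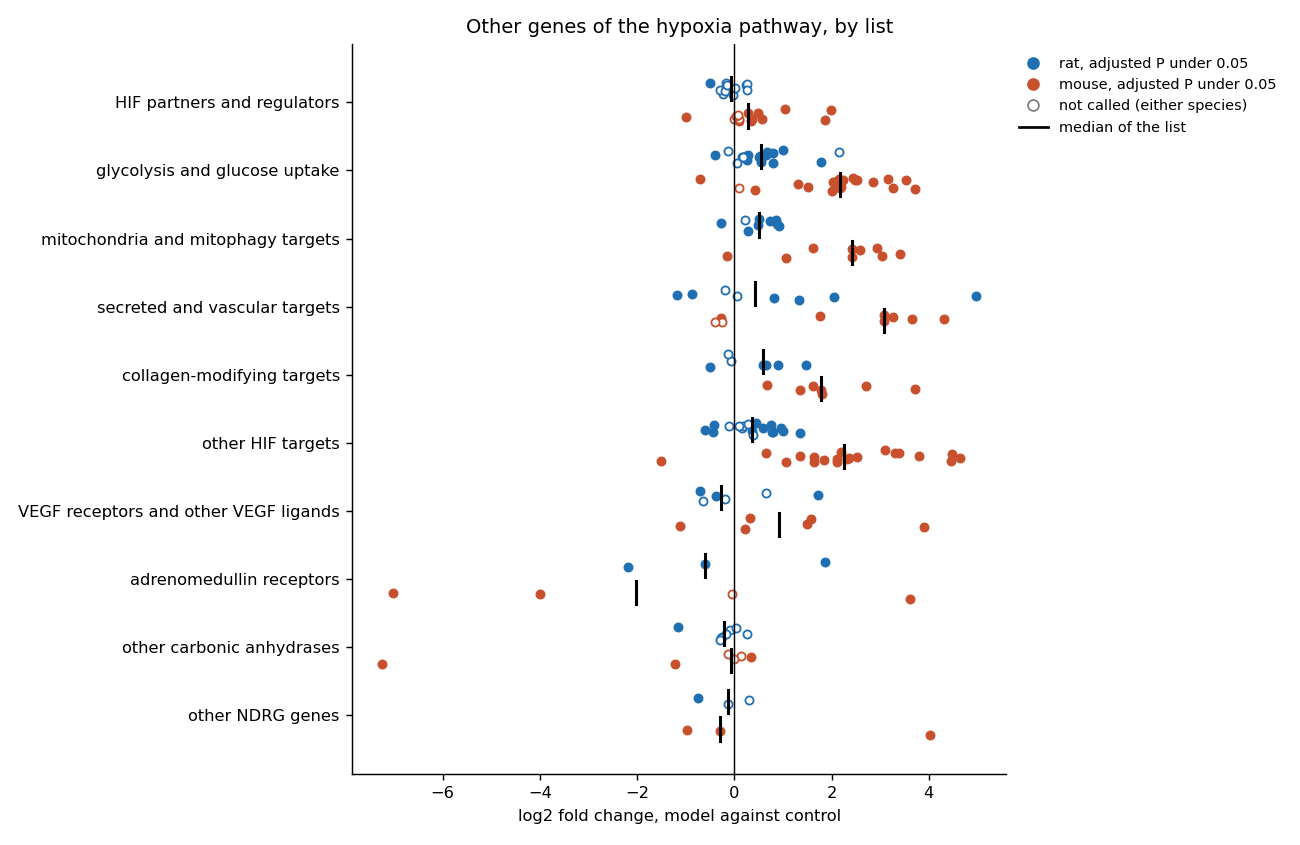
Log2 fold changes of the model over the control group for each tested gene of the further pathway lists (points) and their medians (lines), in rat and in mouse. The median is 0.54 in rat and 2.17 in mouse for glycolysis and glucose uptake, and -0.07 and 0.28 for HIF partners and regulators.

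Of 6 VEGF receptors and other VEGF ligands tested in rat, 1 was called higher and 2 lower. In mouse 5 of 6 were called higher and 1 (Nrp1) lower. Of the adrenomedullin receptors, 1 of 3 tested in rat was called higher and 2 lower. In mouse 1 of 4 was called higher and 2 lower. Over all genes, 18.3% were called higher and 16.8% lower in rat, and 37.4% and 37.7% in mouse. Kdr, the main receptor of VEGF-A in endothelium, was too sparse to be tested, with 3 counts in RC and 4 in RM libraries together and 17 in MC and 39 in MM libraries. Nrp2, a coreceptor, fell in rat from 381 ± 17.5 to 235 ± 11.9 FPKM (SD, n = 3; log2 fold change -0.71, adjusted P = 1.59e-05) and rose in mouse from 38.8 ± 0.21 to 95.8 ± 0.296 (1.58, adjusted P = 5.3e-53). Nrp1 was not called in rat (adjusted P = 0.137) and fell by 1.12 in mouse. Calcrl, the receptor of adrenomedullin, went from 14 to 53 counts in rat (1.86, adjusted P = 0.00808), and in mouse it was not called (-0.06, adjusted P = 0.796). Its partner Ramp2 went from 478 to 3 counts in mouse, whereas Ramp3 had 12 and 137 in mouse and fell by 0.60 in rat (adjusted P = 0.011). Ramp1 fell in rat from 89 to 20 counts (-2.19, adjusted P = 0.00282). Its difference in mouse minus rat was -1.84 (adjusted P = 0.0152). Kdr, Calcrl, Ramp1, Ramp2 and Ramp3 are named after their values were seen.

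Of the other carbonic anhydrases, 1 of 8 tested in rat was called lower and none higher, and in mouse 1 of 6 was called higher and 2 lower, where 35.1% of all rat genes and 75% of all mouse genes were called in either direction. Car3, which is abundant in muscle and fat, fell from 44.7 ± 4.93 to 20.2 ± 0.428 FPKM (SD, n = 3) in rat (-1.16, adjusted P = 6.83e-06) and from 729 to 4 counts over the group in mouse. Ndrg2 rose in mouse from 4.01 ± 0.38 to 54.0 ± 2.72 FPKM (4.02, adjusted P = 2.85e-58) and was not called in rat (0.30, adjusted P = 0.0669), where it was called without RC replicate 2 (0.42, adjusted P = 0.0154). Ndrg3 fell by 0.97 in mouse and was not called in rat (-0.13, adjusted P = 0.452). Ndrg4 fell by 0.75 in rat (adjusted P = 3.23e-05) and is named outside the rule for named genes, after its values were seen. Of these 3 NDRG genes, 1 was called lower in rat and none higher, and in mouse 1 was called higher and 2 lower. Over all genes, 18.3% were called higher and 16.8% lower in rat, and 37.4% and 37.7% in mouse.

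The genes whose pattern over the 12 libraries lay nearest to that of Epas1 were Fzd1, Steap2 and Smad7, at a root mean square distance of 0.0994, 0.0995 and 0.109 in log2 CPM after centring on the control mean of each species. In rat they had log2 fold changes of 1.08, 1.16 and 0.88, and in mouse of 1.36, 1.30 and 1.30. For Vegfa the nearest were Rab11fip1, Pla2g4a and Gys1, at 0.129, 0.141 and 0.149. These had log2 fold changes of 0.82, 0.80 and 0.80 in rat and 3.06, 3.20 and 3.10 in mouse. Distances were taken over the 10951 genes tested in both species.

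The libraries held 21114361 to 24897458 counted reads in the RC group, 20169272 to 25903459 in the RM group, 16841580 to 17957308 in MC and 17482589 to 20048322 in MM libraries. Replicates spread more in rat than in mouse, with a biological coefficient of variation in edgeR of 0.106 against 0.0318, so the rat values are less precise. The study's methods call the samples of a group independent, but neither they nor the labels tie a library to a culture or an animal, and P values measure the spread between these libraries, which may be technical. Marker lists also moved with the groups. Col2a1, the defining collagen gene of cartilage, averaged 2838 ± 297.8 (SD, n = 3) in RC and 1347 ± 23.8 in MC libraries, and it fell in both species. All 9 chondrocyte markers fell in both species, and their summed FPKM was 4175 to 4853 in the RC libraries and 1478 to 1530 in the RM libraries, and 2036 to 2087 in the MC libraries and 178 to 191 in the MM libraries. The summed FPKM of the endothelial markers was 6.81 to 9.90 and 5.48 to 7.44 in rat and 0.764 to 1.05 and 1.20 to 1.25 in mouse, and that of the macrophage and leukocyte markers 8.54 to 9.61 and 9.34 to 12.7 in rat and 5.36 to 5.94 and 10.2 to 13.2 in mouse. The fibroblast markers summed to 985 to 1071 and 998 to 1040 in rat and to 119 to 122 and 436 to 452 in mouse, where Pdpn (75.6 to 413 on average) carried the sum while 3 of the 5 genes (Thy1, Fap and Dpt) were called lower and 2 higher, and the muscle markers to 6.53 to 7.45 and 3.98 to 4.53 in rat and to 5.52 to 6.73 and 0.421 to 0.85 in mouse. The defining leukocyte gene Ptprc had a mean FPKM of at most 0.0559 in each group, Itgam had 0 in mouse, and the endothelial gene Cdh5 had at most 0.121. Other genes of both lists had higher levels. In rat, Cd68 averaged 3.96 in RC and 7.63 in RM libraries, and Egfl7 8.35 and 6.44. Of the macrophage and leukocyte markers tested, 1 of 4 was called higher and 2 lower in rat, and 3 of 3 higher in mouse. Of the endothelial markers tested, the 1 in rat (Egfl7) was not called, and of 3 in mouse 2 were called higher and 1 lower. The low genes alone thus do not show that these cell types were absent. The part of these shifts in the values of the HIF genes was not tested. The mouse exons of Hif1a, Car9, Bnip3 and Ndrg1 overlap those of other annotated genes, on the opposite strand or, for 1 partner of Hif1a, on the same strand, and strand use in the counting is not given in the sources used here.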

How the data were processed

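The 12 RNA-seq libraries were grouped by the treatment given in their labels, 3 to a group. For each species the authors deposited raw read counts per Ensembl gene and library, whole numbers without normalization, and FPKM values computed from them. The submitters' processing notes name HISAT2, HTSeq 0.11.2, GRCm38 and Rnor_6.0, and the sources used here give neither strand use nor annotation. Mouse coordinates are those of GENCODE M21 on GRCm38. No rat gene coordinates are given, and rat promoters are from RefSeq (GRCr8).

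For each species, edgeR 4.0.16 in R 4.3.3 (filterByExpr, TMM, glmQLFit and glmQLFTest) was run on the counts, with Benjamini-Hochberg adjustment of P across the genes tested. The study's methods give the DEG criteria. The difference between the species was fitted on genes shared by symbol over the 12 libraries, where TMM factors and library sizes came from each species separately. The 10 members and all lists were chosen with earlier results of these data known. Named genes were the members, then Arnt, Egln2, Hif1an and Vhl, and of each further pathway list up to 2 genes with the largest rise and 2 with the largest fall per species among DEGs with an adjusted P under 0.05 and a group mean of 5 FPKM or more. For Epas1 and Vegfa the 3 nearest genes by log2 CPM (prior count 2) were added. Of the genes this rule names, 1 is not reported here. The tests were checked on simulated data with as many genes raised as lowered. Such data do not hold the dependence on scaling seen in mouse, and no result here rests on them. Alternatives were DESeq2 1.42.0, limma 3.58.1 on log2(FPKM + 1), 2 other scalings, other filters and thresholds, a replicate block and the omission of each library.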

Additional observations from a re-analysis of the deposited data

Results flagged for a closer look

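The change differed between mouse and rat, by the test of the difference itself in the fit of all 12 libraries (edgeR's quasi-likelihood test, adjusted P under 0.05), for 10 of 10 members and 22 of the 26 other named pathway genes, where 63.7% of the 10951 shared genes did so. The members were named with these contrasts known, so their values are a description. Most of the other named genes were picked for the largest changes within a species, which favours a difference, so nothing is read from these counts. Of the 26, Ero1a had no fitted difference, because its symbol differs between the rat and mouse data. The log2 fold change in mouse minus that in rat was 0.65 for Hif1a, 0.27 for Epas1, 2.67 for Egln1, 1.98 for Egln3, 2.19 for Vegfa, 1.65 for Adm, 4.94 for Car9, 1.11 for Car12, 2.53 for Bnip3 and 2.45 for Ndrg1.

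Among the regulators the difference was 1.93 for Vhl, 1.75 for Cited2, 0.58 for Egln2 and -0.50 for Arnt2. The call for Egln2 was lost with library size alone. Of the metabolic and mitochondrial genes, Slc16a3 differed by 1.93, Slc2a1 by 2.53, Pdk1 by 1.51, Ndufa4l2 by 2.15 and Fam162a by 2.56. The difference was -0.66 for Angptl4 (-0.41, adjusted P = 0.0764, without RC replicate 1), 0.89 for Igfbp3, 2.05 for Ak4, 1.53 for Bhlhe40, 4.05 for Gbe1 and 4.33 for Ankrd37. Among relatives and receptors it was -0.93 for Nrp1, -6.10 for Car3, 3.72 for Ndrg2 and -0.84 for Ndrg3. Pgf (4.53), Loxl2 (3.22) and Nrp2 (2.29) were called lower in rat and higher in mouse, where 12.5% of the shared genes were called in opposite directions. Library sizes and TMM factors were set within each species. Under any scaling, these differences also hold whatever separates the rat and mouse cultures in preparation, which cannot be told apart from species.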

How the results depend on the processing

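The changes of the 10 members kept their direction and their side of the adjusted P threshold in each species under every alternative run. As DEGs, 4 of the 6 rat members remained at a log2 threshold of 1, without Egln1 and Vegfa, and 8 of the 10 mouse members on the limma scale, without Hif1a (0.84) and Car12 (0.69). The members' differences between the species also kept their direction and their side of the adjusted P threshold, with 1 exception. Epas1 turned to -0.0289 with library size alone and missed the threshold without MC replicate 1 (0.20). Scaling mattered most in mouse. When TMM was replaced by library size alone, the signed log2 fold change was called higher in mouse for 2196 genes and higher in rat for 5415 (3436 and 3539 with TMM). With that scaling 21 further pathway genes were called lower in mouse (12 with TMM), and the differences of Arnt and Hif1an turned to -0.284 and -0.0648. Hif1an in mouse turned to -0.219 with library size alone and -0.20 with limma on log2(FPKM + 1). The latter scale understates the change of low genes and also leaves out the TMM factors. With it the median change over all mouse genes was -0.19. It gave 1154 mouse DEGs with higher expression (1862 by edgeR) and 3639 mouse genes called higher (5521, and 3699 with library size alone). In rat it gave 406 DEGs higher (617) and 275 lower (519), and in mouse 22 further pathway genes were called lower. A log2 threshold of 1 left 9 further pathway DEGs higher in rat (15). Without 1 library, the change of Arnt ran from -0.0682 to 0.0024 in rat, from -0.0416 to 0.0178 in mouse and from -0.0176 to 0.0526 in their difference, and that of Hif1an in mouse from -0.0009 to 0.118. The cause of these shifts was not tested.

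The deviations of same-numbered libraries had correlations of 0.0241, -0.0977 and 0.0849 in rat and 0.00124, 0.0149 and 0.00482 in mouse. Differently numbered rat libraries had correlations from -0.185 to 0.162. With 3 libraries per group, these values cannot show whether the numbers pair samples. With a replicate block, 2436 rat genes were called higher and 2098 lower, 5503 mouse genes higher and 5544 lower, no call of a member changed, and of the other named genes Ndrg2 was called in rat (0.31, adjusted P = 0.0434). The rat libraries spread more than the mouse libraries, and the low counts of Egln3 in the RC group and of Car12 limit their precision.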
